A study of Mus musculus with 4 samples.

Results

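The genes described here are the members of the Fanc, Xrcc, Ercc, Brca, Pms, Mlh, Msh and Rad families, the symbol families that hold many of the known DNA repair genes of the mouse. They were chosen by gene symbol alone, and no measured value enters the rule. All probe sets were taken whose platform annotation gave 1 symbol starting with Fanc, Xrcc, Ercc or Brca, or with Pms, Mlh, Msh or Rad followed by a digit, apart from the cohesin genes Rad21 and Rad21l. The rule found 113 of the 45101 probe sets on the array, which belong to 49 of 18193 genes. The probe set with the brightest mean on the log2 scale stood for a gene, and 45 of the 49 lay above the filter on dim probe sets (mean signal 42.4 or more) and were tested, among 12615 genes in all.

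RNA was hybridised to 4 single-colour Affymetrix arrays. It came from J1 cells, a line of mouse embryonic stem cells, all carrying the inducible RNAi construct Chd4i-1 against Chd4. Chd4 is the remodelling ATPase in NuRD, a complex that also holds histone deacetylases. The knockdown group (Chd4 RNAi, n = 2 arrays) got doxycycline at 5 ng/ml over 3 days, whereas the control group (n = 2 arrays) got none. Both grew on gelatin in medium with serum and leukemia inhibitory factor. The Tet-on construct makes doxycycline part of the knockdown group only, so effects of the drug, of the RNAi and of Chd4 loss cannot be told apart, and one inducible line was used. In bulk RNA, fewer cells with a transcript and less of it per cell cannot be told apart either.

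Cells repair DNA by pathways that each handle a kind of lesion. The Fanconi anaemia proteins and homologous recombination act on crosslinks, stalled forks and double-strand breaks, mostly in S and G2 phase, whereas end joining seals breaks directly. Mismatch repair corrects replication errors, nucleotide excision repair removes bulky lesions, and checkpoint proteins signal damage to the cell cycle. Embryonic stem cells divide fast, spend much of their cycle in S phase and rely heavily on homologous recombination. Chd4 protein is known to be recruited to DNA breaks, so the comparison also asks whether the transcripts of the repair machinery differ when Chd4 is depleted.

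All 3 Chd4 probe sets were dimmer in the knockdown arrays than in the controls. At 1438476_a_at the signals went from 918 and 814 to 445 and 394, which leaves 48.5% of the control, and at 1436343_at from 894 and 822 to 551 and 420.2, which leaves 56.1% of the control. At 1451295_a_at, the brightest, they went from 2215 and 1826 to 1155 and 1479.9, which leaves 65.0% of the control. The brightest lost its call in a variance model with no trend over intensity (-0.62, adjusted p = 0.146). Stem cell markers were bright on all arrays, with 11 of 11 above the filter. At an adjusted p under 0.05 by limma, 3 were higher in the knockdown (27.3%, against 11.7% of all genes). These were Sall4, Utf1 and Dppa5a. Esrrb and Klf4, 2 of the 11, were lower (18.2%, against 8.81%). At an unadjusted p under 0.05, 3 were higher and 5 lower (72.7%, against 33.8% of all genes). Stem cell marker signals summed to 126291 to 129298 in the controls and 126470 to 129763 in the knockdown arrays. Opposite changes cancel in such a sum. Markers of fibroblast feeders summed to 479 to 563 in the controls and 794 to 894 in the knockdown arrays, with 3 of 8 above the filter and the rise carried by Thy1 (176 and 199.5 to 601 and 547), while the collagen genes Col1a1 and Col3a1 lay below it. Trophectoderm markers summed to 2604 to 2655 and 5087 to 5406, with 4 of 7 above the filter. Of these, Tfap2c and Krt18 were higher (50%, against 11.7% of all genes). Krt8 (670 and 682 to 713 and 779) and Eomes (142 and 184 to 147 and 129) did not pass. The factors Cdx2, Elf5 and Gata3 lay below the filter. Primitive endoderm markers summed to 374 to 378 and 436 to 480, and meiotic germ cell markers to 1900.5 to 2101 and 2264 to 2282. No marker was listed at 0, and the part of these shifts in the results below was not tested.

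Most of the repair family transcripts lay close to their control level. Fancl and Brca2 rose, and Brca1, Rad54b and Ercc2 fell, which is 5 of 45 tested genes (11.1%) at an adjusted p under 0.05 against 20.5% of all genes tested. In the upward direction 2 members passed (4.44%, against 11.7% of all genes), and in the downward direction 3 (6.67%, against 8.81%). The difference between these shares was not tested. Of the 5 calls, 1 (Fancl) held in a variance model without an intensity trend. Leaving out 1 array ended the call of Rad54b each time, and those of Brca1 and Brca2 in most cases. The 2 groups did not overlap for 27 of 45 members (60%), against 60.6% of all genes, and 12 members had an unadjusted p under 0.05 (26.7%, against 33.8%). The median log2 difference was 0.034 over the members and 0.014 over all genes tested, where a difference is log2 signal in the knockdown minus the control.

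The lack of calls came with fairly narrow errors. The standard error of a member's log2 difference ranged from 0.048 to 0.36 with a median of 0.10, compared with a median of 0.13 over all genes tested. The members were also brighter, with a median control signal of 869 against 488, and the variance model follows intensity. The part of brightness in these errors was not tested. Of the 45 members, 37 had a 95% interval within 1.5-fold in either direction (82.2%, against 52.7% of all genes tested). Of the 40 members that were tested and did not pass, 34 had a 95% interval of the fit that lay within a 1.5-fold change in either direction. The intervals of the other 6, Fancc, Fancg, Rad51b, Xrcc3, Xrcc4 and Ercc4, reached past 1.5-fold, so a change of that size is not excluded for them. Each interval is for the brightest probe set alone, so such a change is not excluded for every one of the 34 either. For example, a second Fancd2 probe set had a log2 difference of -0.68 and passed among probe sets, and dimmer Fancf probe sets had -0.83 and -0.64. At the brightest probe set, the differences of the 40 ran from -0.23 for Fancf to 0.33 for Rad1.

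**Figure D1:**
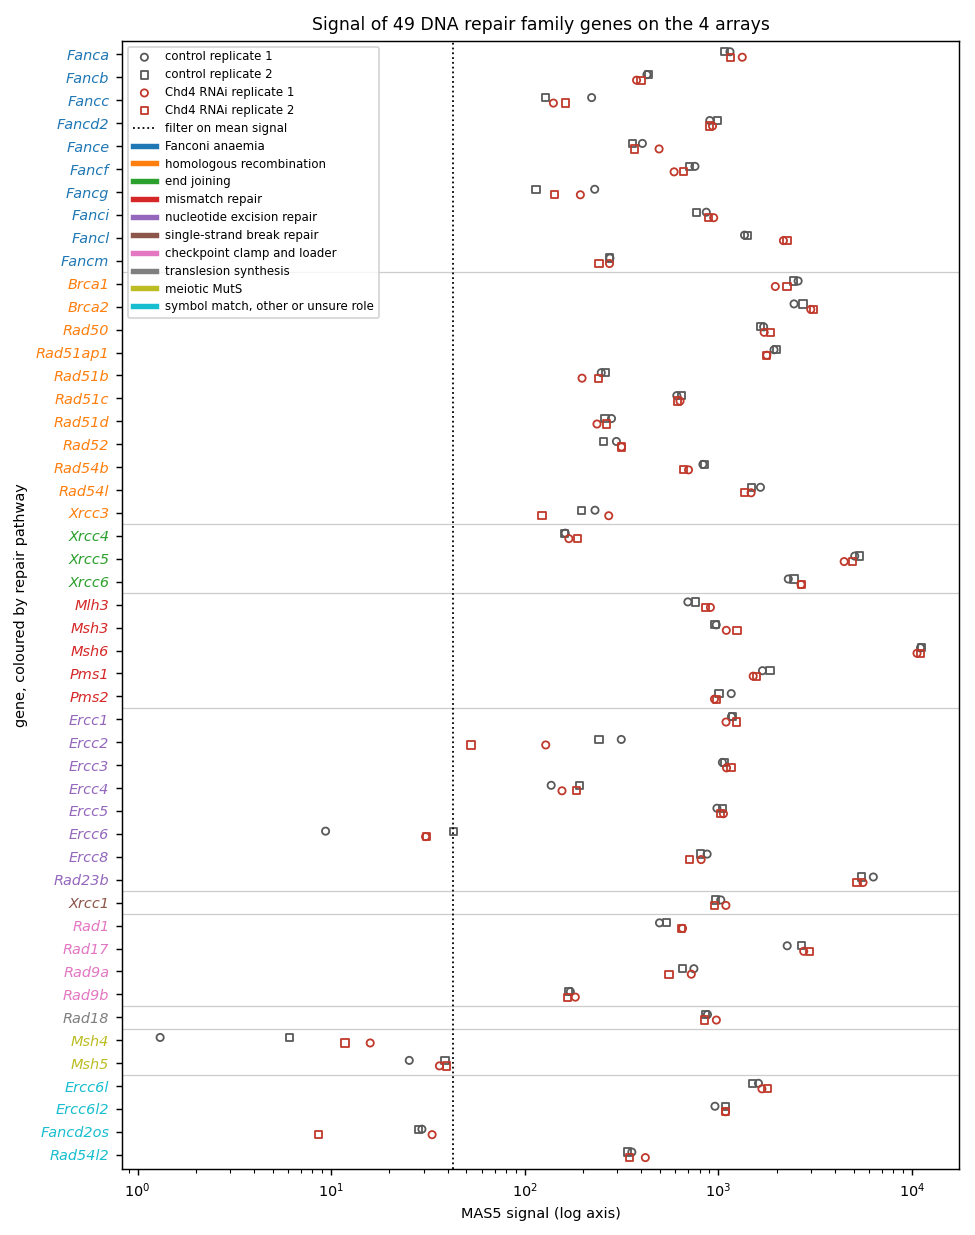
MAS5 signal (log axis) of the 49 genes on each array, with control arrays in grey and Chd4 RNAi arrays in red, circles for replicate 1 and squares for replicate 2, and gene names coloured by pathway. Most grey and red symbols lie close together, while Fancl (1365 and 1412 against 2168 and 2262) and Ercc2 (315 and 242 against 128 and 52.8) are separated. Msh4, Msh5 and Fancd2os lie left of the dotted filter at 42.4. Ercc6 has its mean left of the filter, with control replicate 2 at 43.0 just right of it.

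The Fanconi anaemia pathway recognises DNA crosslinks, and at its centre a core complex attaches ubiquitin to the pair formed by Fancd2 and Fanci. Of 10 members tested, 1 rose (10%, against 11.7% of all genes) and 0 fell by limma (against 8.81%). At an unadjusted p under 0.05 the counts were 1 and 0 (10%, against 33.8% of all genes). Their median log2 difference was -0.0041. The member that rose was Fancl, the ubiquitin ligase subunit of the core complex, with signals of 1365 and 1412 without knockdown and 2168 and 2262 with it. Both knockdown arrays were far above both controls, a rise of 1.59-fold (log2 0.67 ± 0.073 SE, adjusted p = 0.000111). It is the largest rise among the 45 members and kept its call in every alternative except the mean of all probe sets (0.68, adjusted p = 0.0659), in which its second, dim probe set, 1432337_at (signals 31.6 and 15.8 to 34.6 and 37.8), counted as much as the bright one.

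The promoter of Fancl is shown because it belongs to the member with the largest rise. It spans 250 bases before to 50 bases after the annotated start at chr11:26386834-26387133 on the + strand (RefSeq, GRCm38.p6), and none of the E2F words searched below is in it, so no letter is in capitals.
Fancl: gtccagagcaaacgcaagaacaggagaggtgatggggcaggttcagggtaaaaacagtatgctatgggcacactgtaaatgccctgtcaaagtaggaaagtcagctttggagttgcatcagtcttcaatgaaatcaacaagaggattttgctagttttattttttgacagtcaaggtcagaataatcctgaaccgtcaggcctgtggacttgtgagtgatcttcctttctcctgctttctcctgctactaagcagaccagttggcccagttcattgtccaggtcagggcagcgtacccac

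None of the other core complex subunits on the array passed the test. Fanca, a subunit of the core, had signals of 1148 and 1072 without knockdown and 1329 and 1156 with it (log2 0.16 ± 0.095 SE, adjusted p = 0.27), and both knockdown arrays were higher by a small margin. Fancb, the partner of Fancl within the core, had 428 and 436 without knockdown and 378 and 399 with it, lower in both knockdown arrays (log2 -0.15 ± 0.13 SE, adjusted p = 0.438). Fancf, an adaptor of the core complex, had 757 and 712 without knockdown and 591 and 662 with it, again lower in both (log2 -0.23 ± 0.11 SE, adjusted p = 0.16). Its 2 dimmer probe sets pointed the same way, at -0.83 and -0.64. Fance, which binds Fancd2, went from 405 and 361 to 494 and 369, and 1 knockdown array lay among the controls (log2 0.16 ± 0.16 SE, adjusted p = 0.533). Fancm, the translocase that anchors the complex to DNA, went from 275 and 273 to 274 and 242 (log2 -0.091 ± 0.16 SE, adjusted p = 0.745). Fancc and Fancg were the least precise of the Fanconi genes, since their control arrays alone differed widely, at 222 and 128 for Fancc and 230 and 114 for Fancg, and their knockdown signals of 141 and 162 and of 194 and 143 lay within that range.

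The substrates of the core complex are Fanci and Fancd2. Fanci had signals of 866 and 771 without knockdown and 946 and 891 with it (log2 0.17 ± 0.10 SE, adjusted p = 0.273), with both knockdown arrays just above the controls. Fancd2 had 903 and 989.8 without knockdown and 933 and 898 with it, and the groups overlapped (log2 -0.047 ± 0.094 SE, adjusted p = 0.775). Its probe sets disagreed, because 1438339_at was lower in the knockdown, with 572 and 524 without knockdown and 278 and 423 with it (log2 -0.68 ± 0.18 SE, adjusted p = 0.0294, adjusted over 27022 probe sets), while the dim 1430916_at had a difference of 0.64 and 1442092_at one of -0.39. What Fancd2 did is therefore uncertain from these arrays. The small gene Fancd2os, named for its place opposite Fancd2, lay below the filter at 29.4 and 28.2 without knockdown and 33.2 and 8.60 with it.

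Homologous recombination, which copies the intact sister chromatid to mend a break, was the pathway with most of the calls. Of 11 members tested, Brca2 rose (9.09%, against 11.7% of all genes) and Brca1 and Rad54b fell (18.2%, against 8.81%). In either direction this is 27.3% against 20.5% of all genes. At an unadjusted p under 0.05, 1 was higher and 2 lower (27.3%, against 33.8% of all genes). A difference below 0 was found for 8 of 11, against 6069 of all 12615 genes tested. The median log2 difference was -0.15. These calls are small, at most 1.24-fold, and lie near the threshold, so several alternatives ended each of them.

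Brca1 and Brca2 act at successive steps, Brca1 in resecting the break and Brca2 in loading the recombinase onto single-stranded DNA, and their transcripts went in opposite directions. Brca1 had signals of 2583 and 2446 without knockdown and 1969 and 2265 with it, so both knockdown arrays were lower, a fall of 1.19-fold (log2 -0.25 ± 0.080 SE, adjusted p = 0.0477). All 3 further Brca1 probe sets were lower as well. They went from 558 and 594 to 475 and 480.1 at 1424630_a_at, from 598 and 734 to 482 and 503 at 1451417_at and from 75.5 and 102 to 64.2 and 53.8 at the dim 1427698_at. Among probe sets, 1451417_at passed (log2 -0.43 ± 0.13 SE, adjusted p = 0.0464). The gene's call ended under quantile normalization (-0.24, adjusted p = 0.0568), without the filter (adjusted p = 0.0736), without the intensity trend (adjusted p = 0.248) and with the mean of all probe sets (-0.38, adjusted p = 0.0694). It also ended when control replicate 1 (-0.21, adjusted p = 0.186), control replicate 2 (-0.29, adjusted p = 0.0684) or the first knockdown array (-0.15, adjusted p = 0.258) was left out.

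Brca2, measured by 1 probe set, had signals of 2460.2 and 2736 without knockdown and 3003 and 3107 with it, higher in both knockdown arrays, a rise of 1.18-fold (log2 0.24 ± 0.071 SE, adjusted p = 0.038). The call ended without the filter (adjusted p = 0.0582), without the trend (adjusted p = 0.226) and when probe sets were averaged (adjusted p = 0.0639), which leaves the value of this gene unchanged. Leaving out control replicate 1 (0.16, adjusted p = 0.244), the first knockdown array (0.26, adjusted p = 0.0568) or the second (0.21, adjusted p = 0.119) ended it too.

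The promoters of this pair are shown because their transcripts differed in direction. That of Brca1 lies at chr11:101551906-101552205 on the - strand and that of Brca2 at chr5:150522371-150522670 on the + strand (RefSeq, GRCm38.p6), each printed on the strand of its gene. Capitals mark an E2F word, of which Brca2 has 1 and Brca1 has 0.
Brca1: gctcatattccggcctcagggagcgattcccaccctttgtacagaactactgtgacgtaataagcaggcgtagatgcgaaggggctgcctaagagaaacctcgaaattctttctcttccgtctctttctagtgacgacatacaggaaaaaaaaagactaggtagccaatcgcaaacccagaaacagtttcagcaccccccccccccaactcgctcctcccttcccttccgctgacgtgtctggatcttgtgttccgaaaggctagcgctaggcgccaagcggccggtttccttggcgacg
Brca2: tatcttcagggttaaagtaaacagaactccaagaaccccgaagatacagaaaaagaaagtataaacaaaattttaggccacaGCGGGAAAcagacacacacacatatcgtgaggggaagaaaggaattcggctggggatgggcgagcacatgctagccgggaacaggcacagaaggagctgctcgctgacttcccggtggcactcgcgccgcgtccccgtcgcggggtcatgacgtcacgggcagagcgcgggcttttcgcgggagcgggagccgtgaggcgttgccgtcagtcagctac

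Rad54b, a translocase that helps the recombinase filament find its partner strand, had 832 and 847 without knockdown and 701 and 659 with it, a fall of 1.24-fold in which all values of one group lay below the other (log2 -0.30 ± 0.10 SE, adjusted p = 0.0497). The margin to the threshold was slight, and the call ended under quantile normalization (-0.30, adjusted p = 0.061), without the filter (adjusted p = 0.0631), without the trend (adjusted p = 0.129), with probe sets averaged (adjusted p = 0.0596) and without any one of the 4 arrays (log2 -0.35 to -0.26, adjusted p 0.068 to 0.177). Its closest relative, Rad54l, had 1650.2 and 1487 without knockdown and 1476 and 1359 with it, also lower in both knockdown arrays without passing (log2 -0.15 ± 0.086 SE, adjusted p = 0.265).

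Rad51ap1, which stimulates strand exchange, showed the same sign at each of its 4 probe sets. The brightest had 1939 and 2004 without knockdown and 1780.1 and 1775 with it (log2 -0.15 ± 0.071 SE, adjusted p = 0.164), and the others had differences of -0.20, -0.13 and -0.069. Among the paralogues that support the recombinase filament, Rad51c had 610.0 and 645 without knockdown and 634 and 617 with it, with overlapping groups and a difference of -0.0045. Rad51b went from 248 and 262 to 198 and 241 (log2 -0.23 ± 0.18 SE, adjusted p = 0.42) and Rad51d from 281 and 259 to 236 and 265 (log2 -0.11 ± 0.17 SE, adjusted p = 0.694), and the 3 further Rad51d probe sets ran from -0.27 to 0.33. Xrcc3, another paralogue, gave 271 and 123 in the knockdown arrays, on either side of its controls at 231 and 196. Rad52, an annealing protein, had 297 and 255 without knockdown and 316 and 317 with it (log2 0.20 ± 0.16 SE, adjusted p = 0.413), and Rad50, the break sensor that works with Mre11a and Nbn, had 1714 and 1658 without knockdown and 1725 and 1858 with it (log2 0.087 ± 0.076 SE, adjusted p = 0.464).

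Cell cycle genes were counted beside the recombination genes. Of 28 S-phase genes, 12 fell and 0 rose by limma (42.9% lower, against 8.81% of all genes). At an unadjusted p under 0.05, 16 were lower and 2 higher (64.3%, against 33.8% of all genes). Their summed signal was 144762 to 148276 in the controls and 131626 to 133861 in the knockdown arrays. Of 25 G2/M genes 3 rose (12%, close to the 11.7% of all genes) and 0 fell. At an unadjusted p under 0.05, 6 were higher and 0 lower (24%, against 33.8% of all genes). The G2/M sums were 120166 to 122957 in the controls and 127995 to 128035 in the knockdown arrays. The median log2 difference was -0.17 for the S-phase list and 0.062 for the G2/M list. Among them the replication initiation gene Gins2 fell 1.71-fold (adjusted p = 5.61e-05) and the mitotic cyclin gene Ccnb2 rose 1.18-fold (adjusted p = 0.00809). The 15 calls of both lists became 7 without control replicate 2, 9 without control replicate 1 and 1 without the intensity trend. The part of a shift in cell cycle phases in the repair results was not tested.

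**Figure D2:**
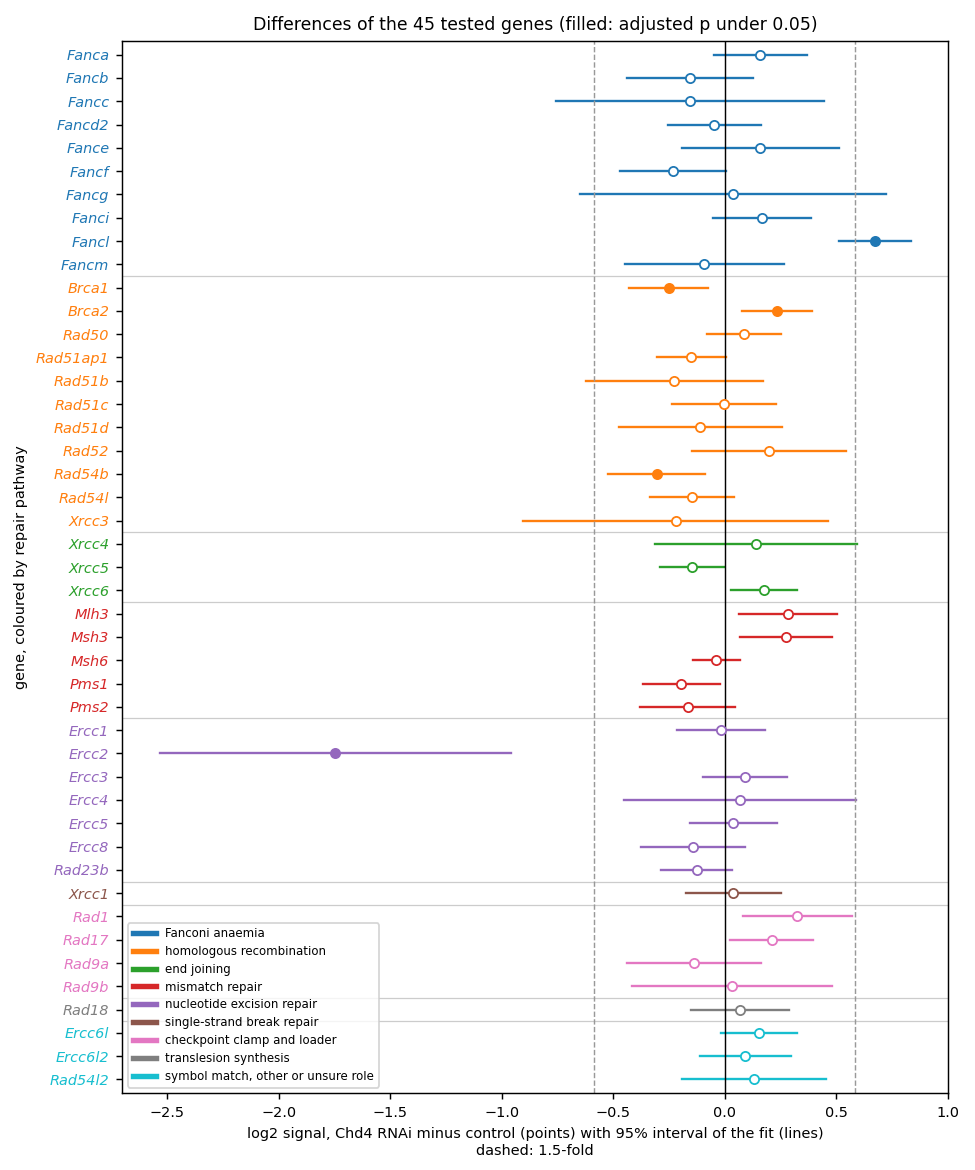
Log2 difference of each of the 45 tested genes (points) with the 95% interval of the fit (lines), grouped by pathway, and with filled points for genes at an adjusted p under 0.05. Fancl at 0.67 and Ercc2 at -1.75 stand outside the dashed 1.5-fold lines, and the other filled points, Brca1, Brca2 and Rad54b, lie between them.

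End joining was represented by Xrcc5 and Xrcc6, which encode the Ku subunits that cap broken ends, and by Xrcc4, the partner of the ligase. By limma 0 of the 3 passed, against 20.5% of all genes. At an unadjusted p under 0.05, 1 was higher and 1 lower (66.7%, against 33.8% of all genes). Xrcc6 had 2298 and 2461 without knockdown and 2673 and 2696 with it, higher in both knockdown arrays (log2 0.17 ± 0.068 SE, adjusted p = 0.0927). Its partner Xrcc5 had 5063 and 5357 without knockdown and 4467 and 4954 with it, lower in both (log2 -0.15 ± 0.065 SE, adjusted p = 0.138), and passed only without the second knockdown array (-0.22, adjusted p = 0.0485). The subunits of this heterodimer therefore had differences of opposite sign that did not pass. Xrcc4 was dim, at 162 and 161 to 169 and 187, and its second probe set had the opposite sign (-0.47).

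In mismatch repair, MutS proteins find a mispaired base and MutL proteins direct its removal. Of 5 members tested, 0 passed by limma, against 20.5% of all genes. At an unadjusted p under 0.05, 2 were higher and 1 lower (60%, against 33.8% of all genes). The 2 groups did not overlap in 5 of 5, against 60.6% of all genes. Msh6, a mismatch sensor, was the member with the smallest error, with 11075 and 11184 without knockdown and 10623 and 11053 with it (log2 -0.039 ± 0.048 SE, adjusted p = 0.623) and a 95% interval of -0.14 to 0.067. Msh3, which recognises larger loops, had 975 and 961 without knockdown and 1099 and 1249 with it, higher in both knockdown arrays (log2 0.28 ± 0.093 SE, adjusted p = 0.0588). It passed when the filter kept the top 40% (0.28, adjusted p = 0.048) and without the first knockdown array (0.37, adjusted p = 0.0332). Mlh3, the MutL subunit with a main role in meiotic crossovers, had 696 and 759.5 without knockdown and 910.0 and 861 with it, also higher in both (log2 0.28 ± 0.10 SE, adjusted p = 0.0661). The MutL subunits Pms1 and Pms2 pointed down. Pms1 had 1690.1 and 1850.2 without knockdown and 1513 and 1579 with it (log2 -0.19 ± 0.079 SE, adjusted p = 0.109) and Pms2 had 1166 and 1007 without knockdown and 955 and 976 with it (log2 -0.17 ± 0.10 SE, adjusted p = 0.261), with its other 2 probe sets at -0.27 and -0.12. The meiotic MutS genes Msh4 and Msh5 lay below the filter in all arrays, Msh4 at 1.31 to 15.9 and Msh5 at 25.3 to 39.4, and were not tested.

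Nucleotide excision repair opens the helix around a bulky lesion and cuts on both sides. Of 7 members tested, 1 fell (14.3%, against 8.81% of all genes) and 0 rose by limma (against 11.7%). At an unadjusted p under 0.05 the counts were also 1 and 0 (14.3%, against 33.8% of all genes). The one that fell was Ercc2, a helicase of the transcription factor TFIIH, with signals of 315 and 242 without knockdown and 128 and 52.8 with it, a fall of 3.36-fold (log2 -1.75 ± 0.36 SE, adjusted p = 0.0058). Every knockdown value lay under every control value, but the knockdown arrays differed 2.43-fold from each other, so the size of the fall is imprecise, with a 95% interval of -2.53 to -0.96. The call ended without the intensity trend (-1.75, adjusted p = 0.139) and with the mean of all probe sets (-0.42, adjusted p = 0.652), where the other probe set, 1442253_at, is dim at 12.3 and 64.1 to 84.5 and 33.0. Ercc3, the other helicase of TFIIH, had 1049 and 1077 without knockdown and 1102 and 1163 with it (log2 0.091 ± 0.086 SE, adjusted p = 0.503), close to its controls.

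The nucleases of the pathway did not follow Ercc2 at their brightest probe sets. Ercc1, which cuts on the 5' side together with Ercc4, had 1169 and 1183 without knockdown and 1095 and 1236 with it, with overlapping groups and a difference of -0.015. Ercc4 was dim, at 137 and 191 to 156 and 185 (log2 0.069 ± 0.24 SE, adjusted p = 0.874), and its 3 further probe sets ran from -0.55 to 0.29. Ercc5, which cuts on the 3' side, had 983 and 1046 without knockdown and 1062 and 1021 with it (log2 0.039 ± 0.089 SE, adjusted p = 0.806). Its second probe set, 1457713_at, lay below the filter and went from 61.4 and 78.6 to 4.68 and 17.0, and this alone gave Ercc5 a call when all probe sets were averaged (-1.46, adjusted p = 0.0255). Ercc8, of the transcription-coupled branch, went from 875 and 807 to 815 and 710.3 (log2 -0.14 ± 0.11 SE, adjusted p = 0.386), and Rad23b, a partner of the lesion sensor Xpc, from 6319 and 5478 to 5589 and 5202 (log2 -0.13 ± 0.072 SE, adjusted p = 0.251), with all 4 Rad23b probe sets below 0. Ercc6, the remodeller of the transcription-coupled branch, had a mean below the filter, with signals of 9.35 to 43.0.

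The remaining members covered single steps. The subunits of the checkpoint clamp, Rad1 and Rad9a, differed in sign. Rad1 had 497 and 539.5 without knockdown and 653 and 644 with it, higher in both knockdown arrays (log2 0.33 ± 0.11 SE, adjusted p = 0.0607), and passed when probe sets above the filter were averaged (0.33, adjusted p = 0.047), which leaves its own value unchanged. Rad9a had 748 and 652 without knockdown and 725 and 557 with it, with overlap (log2 -0.14 ± 0.14 SE, adjusted p = 0.531). Rad17, which loads the clamp, had 2268 and 2684 without knockdown and 2759.9 and 2951 with it (log2 0.21 ± 0.084 SE, adjusted p = 0.103) and passed without control replicate 2 (0.33, adjusted p = 0.0212). By limma 0 of the 4 clamp and loader genes passed, against 20.5% of all genes. At an unadjusted p under 0.05, 2 were higher and 0 lower (50%, against 33.8% of all genes). The fourth, the paralogue Rad9b, went from 172 and 169 to 182 and 166. Xrcc1, the scaffold of single-strand break repair, had 1029 and 964 without knockdown and 1094 and 957 with it (log2 0.039 ± 0.10 SE, adjusted p = 0.824). Rad18, the ubiquitin ligase that opens translesion synthesis, had 879 and 860.2 without knockdown and 977 and 849 with it (log2 0.067 ± 0.10 SE, adjusted p = 0.69), and its 3 other probe sets ran from -0.17 to 0.35.

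A few genes share a family symbol without a settled place in these pathways. Ercc6l, a helicase of mitotic chromosome bridges, had 1612 and 1504 without knockdown and 1679 and 1786 with it (log2 0.15 ± 0.078 SE, adjusted p = 0.196). Ercc6l2 had 960.4 and 1084 without knockdown and 1089.9 and 1086 with it (log2 0.092 ± 0.093 SE, adjusted p = 0.534). Rad54l2, which binds nuclear receptors, had 357 and 340.2 without knockdown and 419.6 and 348 with it (log2 0.13 ± 0.15 SE, adjusted p = 0.577). All 3 had a difference above 0, and 0 passed by limma, against 20.5% of all genes. None had an unadjusted p under 0.05, against 33.8% of all genes.

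Probe sets of the same gene give a check inside each array. Of 96 member probe sets above the filter, 3 were lower and 1 higher at an adjusted p under 0.05 over the 27022 probe sets above the filter, which is 4.17% against 14.2% of all of them. The 4 were the Fancl and Ercc2 probe sets above, 1451417_at of Brca1 and 1438339_at of Fancd2. The brightest Brca1 probe set, Brca2 and Rad54b did not pass over this larger family. There were 28 members with more than 1 probe set above the filter, and 16 of these had all of them on the same side of 0 as the brightest, so the sign itself varied between probe sets for the other 12.

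**Figure D3:**
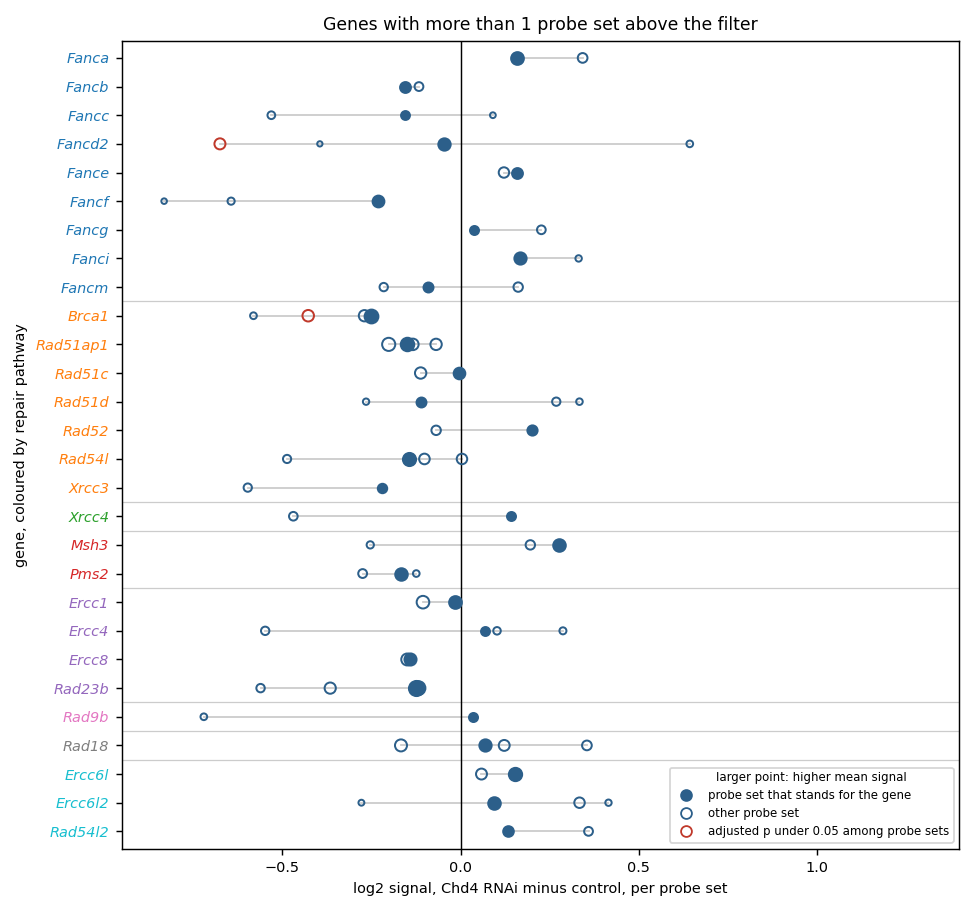
Log2 difference of each probe set above the filter (points) for the 28 genes with more than 1, with filled points for the brightest probe set of a gene, larger points for higher mean signal and a red edge for an adjusted p under 0.05 among probe sets. The 4 Brca1 and 4 Rad51ap1 probe sets all lie below 0, and those of Fancd2 run from -0.68 to 0.64.

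Promoter letters of the members were searched for the E2F words TTTCCCGC, TTTCGCGC, TTTGCCGC and TTTGGCGC on both strands, since E2F factors are known regulators of many replication and repair genes. RefSeq promoters (GRCm38.p6) of 300 bases were matched for 41 of the 49 members by symbol. Not matched were Rad9a, Fancd2, Rad54b, Ercc3, Rad50, Ercc6l, Rad54l2 and Rad51d. At least 1 E2F word was found for 7 of the 41 (17.1%), against 2.6% of the 27025 genes and 2.26% of the 32851 promoters in the table. The CHR words TTTGAA and TTCGAA, which mark many G2/M promoters, were found for 3 of 41 (7.3%), against 21.7% of genes. The E2F words hold more G and C than the CHR words. These backgrounds hold every gene with a RefSeq promoter given, and not only the 18193 genes of the array or the 12615 tested. No background of tested genes or of like base composition was counted. The part of either in these shares was therefore not tested. The E2F windows of the 7 members with a word are shown. Each is printed on the strand of its gene with 10 bases on either side, and capitals mark the word or its complement on the other strand. In the order printed, the windows lie at chr5:150522443-150522470 (+), chr4:43010336-43010363 (-), chr13:92355188-92355215 (-), chr13:92355184-92355211 (-), chr17:35046670-35046697 (-), chr17:87975055-87975082 (+), chr11:87404478-87404505 (-), chr11:87404942-87404969 (-) and chr15:82016313-82016340 (+), with the strand of the gene in parentheses. The words of Msh3 overlap each other, and those of Rad51c lie in promoters of 2 different annotated starts.
Brca2: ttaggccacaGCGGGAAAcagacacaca
Fancg: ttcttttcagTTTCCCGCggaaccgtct
Msh3: tgccgtcaagTTTGGCGCgaaatcgcag
Msh3: gtcaagtttgGCGCGAAAtcgcagccct
Msh5: gacggaaaagGCGGGAAAgtgctgcgaa
Msh6: tcctcccgacTTTCCCGCcagcggcggc
Rad51c: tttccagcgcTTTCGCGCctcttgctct
Rad51c: ccccgcgaggGCGGGAAAagcaaggggt
Xrcc6: gggggtggaaGCGGGAAAtgcgagtggg

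A match to a word is a description and not a bound site. Of the 7 genes with an E2F word, Brca2 rose and 5 did not pass, with log2 differences of -0.039 for Msh6, -0.0045 for Rad51c, 0.038 for Fancg, 0.17 for Xrcc6 and 0.28 for Msh3. Msh5 was not tested.

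Other genes of the same pathways, which the symbol rule does not take, were counted beside the families. Of 110 tested, 8 rose and 20 fell, which is 25.5% against 20.5% of all genes and 18.2% lower against 8.81%. Their median log2 difference was -0.068. The 20 falls became 12 without control replicate 2, 13 without control replicate 1, 13 without the first knockdown array and 1 without the intensity trend, and the 8 rises became 5 without the second knockdown array. Whether they differ from the family members was not tested, and both lists were chosen with earlier results of these data known.

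Partners in homologous recombination gave 6 falls and 0 rises among 23 by limma (26.1% lower, against 8.81% of all genes). At an unadjusted p under 0.05, 8 were lower and 2 higher (43.5%, against 33.8% of all genes). Rpa3, a subunit of the protein that coats single-stranded DNA, went from 3176 and 3297 to 2261 and 2463, a fall of 1.37-fold (adjusted p = 0.00104). Recql, a helicase, fell 1.46-fold (adjusted p = 0.0046), Rmi1, of the complex that dissolves double junctions, fell 1.29-fold (adjusted p = 0.00447) and Eme1, a junction nuclease subunit, fell 1.35-fold (adjusted p = 0.00767). Mre11a and Dna2, nucleases that resect breaks, were the other 2. Among the mismatch repair partners, which are also replication proteins, 3 of 10 fell (30%, against 8.81% of all genes) and 0 rose. At an unadjusted p under 0.05, 4 were lower and 0 higher (40%, against 33.8% of all genes). Pold2, a subunit of polymerase delta, fell 1.56-fold from 3874 and 4016 to 2456 and 2612 (adjusted p = 6.42e-05), and the clamp loader genes Rfc3 and Rfc2 fell 1.28-fold and 1.24-fold (adjusted p = 0.00576 and 0.0132).

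Among end joining partners 3 of 7 rose (42.9%, against 11.7% of all genes) and 0 fell by limma. At an unadjusted p under 0.05 the counts were also 3 and 0 (42.9%, against 33.8% of all genes). The other 4 had differences below 0, and the median was -0.018. Trp53bp1, which shields breaks from resection, went from 3101 and 3282 to 4082 and 4043, a rise of 1.27-fold (adjusted p = 0.00247). Its effector Rif1 rose 1.22-fold (adjusted p = 0.0209) and Nhej1, a ligase cofactor, rose 1.77-fold from 142 and 122 to 223 and 244 (adjusted p = 0.0162). The kinase gene Prkdc and the ligase gene Lig4 had differences of -0.11 and -0.11 and did not pass.

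Excision repair partners held the largest falls among the other repair genes that passed. Calls went to 4 of 18 base excision and single-strand break genes (22.2%) and 4 of 13 nucleotide excision partners (30.8%), against 20.5% of all genes. Smug1, a uracil glycosylase, went from 432 and 559 to 241 and 281, a fall of 1.89-fold (adjusted p = 0.00276), and in its class of 18 base excision and single-strand break genes Parp2 and Ung also fell (1.27-fold and 1.20-fold, adjusted p = 0.00273 and 0.0202) while the glycosylase gene Mpg rose 1.24-fold (adjusted p = 0.0402). Among 13 nucleotide excision partners Ddb2, a lesion sensor, went from 555 and 566 to 333 and 301, a fall of 1.77-fold (adjusted p = 0.00127). Its partner Ddb1 rose 1.24-fold (adjusted p = 0.00501). Gtf2h3, a TFIIH subunit like Ercc2, fell 1.21-fold (adjusted p = 0.0291), and Xab2 fell 1.22-fold (adjusted p = 0.0449).

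In checkpoint signalling 3 of 14 fell (21.4%, against 8.81% of all genes) and 1 rose (7.14%, against 11.7%). The kinase gene Chek1 fell 1.25-fold (adjusted p = 0.011). Hus1, the third subunit of the clamp formed with Rad1 and Rad9a, fell 1.22-fold (adjusted p = 0.014), the break-site ligase gene Rnf8 fell 1.20-fold (adjusted p = 0.0485) and the fork protection gene Tipin rose 1.12-fold (adjusted p = 0.0392). In translesion synthesis and tolerance 2 of 12 rose and 2 fell (16.7% each, against 11.7% and 8.81% of all genes). Ube2a, the ubiquitin-conjugating partner of Rad18, went from 5088 and 5198 to 6711 and 8239, a rise of 1.45-fold (adjusted p = 0.00114), Hltf rose 1.45-fold (adjusted p = 0.000779), and the polymerase genes Polk and Rev1 fell 1.56-fold and 1.22-fold (adjusted p = 0.0104 and 0.0196). The Fanconi anaemia partners gave 0 calls of 10 by limma, against 20.5% of all genes. At an unadjusted p under 0.05, 0 of them were higher and 2 lower (20%, against 33.8% of all genes). Direct reversal gave 0 calls of 3, with 0 at that level.

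**Figure D4:**
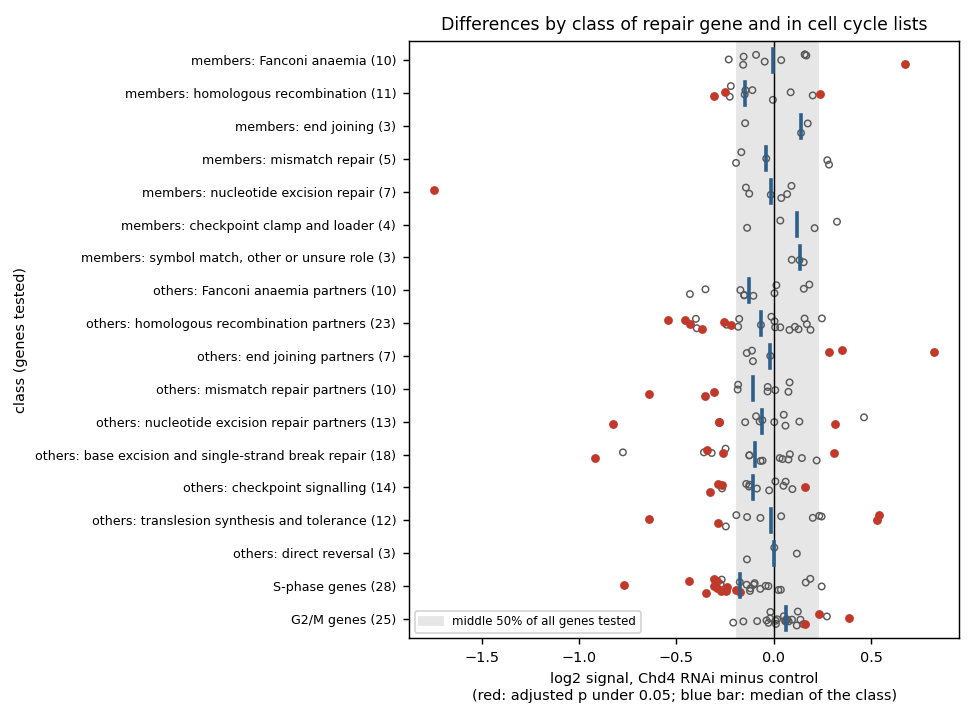
Log2 differences of the tested genes in each class of repair gene with at least 3 of them, and in the S-phase and G2/M lists, with red points at an adjusted p under 0.05, a blue bar at the class median and grey shading over the middle 50% of all genes tested. Red points are few among the family members and lie mainly left of 0 among recombination partners and S-phase genes.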

How the data were processed

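Each deposited value is a linear array intensity, 1 per probe set and array. Per the submitters' processing notes, the authors used MAS5 for it, of which the version, scaling target and detection calls are not given in the sources used here. Averaged after trimming 2% from both tails, the 4 arrays lay between 496.5 and 497.2. The number of arrays limits the precision. Sample titles gave the groups, and the platform annotation gave symbols (1 symbol for 34945 probe sets, with 64 control probe sets left out). Genes above the filter (top 60% of probe sets by mean log2 signal) were tested two-sided on log2 signal, with no pseudocount, by limma 3.58.1 under R 4.3.3. The eBayes step used a trend over intensity, and the fit had 2 residual and 9.12 prior degrees of freedom. Benjamini-Hochberg adjustment ran over 12615 genes, or over 27022 probe sets, with a threshold of 0.05. Intervals are 95% and unadjusted, and log2 values written with ± carry the SE of the difference. The scripts were tested on simulated data. Of the other repair genes, up to 4 per class with the smallest p among those that passed were given values, and 1 gene of each cell cycle list. Mre11a, Dna2, Prkdc, Lig4 and the cell markers were named after their values were seen. Members and lists were chosen with earlier results of these data known. The series text describes duplicates as biological. The closing section gives the alternatives, of which averaging only the probe sets above the filter was chosen after seeing the data.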

Additional observations from a re-analysis of the deposited data

How the results depend on the processing

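Among the family members 5 passed, with 3 under quantile normalization (values forced to 1 distribution), 2 without the filter, 1 without the intensity trend, 1 with all probe sets averaged, 3 with a replicate block and 2 to 4 with 1 array left out. These counts are of all members that passed, not only of the 5 called in the main fit. With all probe sets averaged, the 1 was Ercc5 (log2 -1.46), and 0 of the 5 kept their call. With 1 array left out, some counts include Rad17, Msh3 or Xrcc5 (log2 0.33, 0.37 and -0.22), which are not among the 5. The 2 lost with the replicate block were Brca1 (-0.25, adjusted p = 0.0735) and Rad54b (-0.30, adjusted p = 0.0688). Same-numbered arrays did not deviate together (correlation -0.0019), and the main fit assumed no pairing. The labels do not say whether they share a culture or day. A pseudocount of 16, the top 40% filter and averaging only the probe sets above the filter kept all 5. Without the trend, 421 of all genes passed, 1 other repair gene, 1 cell cycle gene and 0 member probe sets, and Chd4 did not (-0.62, adjusted p = 0.146). With all probe sets averaged, 1380 of all genes passed, 18 other repair genes and 7 cell cycle genes. With 1 array left out, the count was 1808 to 2079 for all genes, 19 to 20 for other repair genes (with 12 lower at the fewest, without control replicate 2) and 7 to 13 for cell cycle genes, the lowest without control replicate 2 (9 without control replicate 1).

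None of the 5 called members reversed in any alternative, and 19 that were not called did. With all probe sets averaged, dim ones included, the reversed log2 differences were -0.34 for Rad9b, -0.16 for Xrcc4, -0.28 for Rad50, 0.046 for Rad51b, 0.057 for Rad51d, 0.66 for Ercc1, -0.022 for Ercc4, -1.46 for Ercc5 and 0.12 for Ercc8. Averaging the probe sets above the filter gave the same values for Rad9b, Xrcc4, Rad51d and Ercc4. Leaving out 1 array turned the sign of another set, with ranges of -0.55 to 0.24 for Fancc, -0.11 to 0.020 for Fancd2, -0.051 to 0.37 for Fance, -0.47 to 0.26 for Fancg, -0.33 to 0.054 for Rad9a, -0.033 to 0.10 for Rad9b, -0.044 to 0.036 for Rad51c, -0.79 to 0.35 for Xrcc3, -0.10 to 0.072 for Ercc1, -0.17 to 0.31 for Ercc4, -0.0061 to 0.083 for Ercc5, -0.057 to 0.14 for Xrcc1, -0.0023 to 0.27 for Rad54l2 and -0.034 to 0.17 for Rad18. Apart from the wider set of probe sets or the array left out, the cause of these changes was not tested. An arm left with 1 array was assumed to vary like the other. Genes below the filter have no usable level, and 2 arrays a group limit what small differences can be called.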
